A study of Mus musculus with 20 samples.

Results

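The 10 genes described here belong to transforming growth factor beta (TGF-beta), activin and bone morphogenetic protein (BMP) signaling and were measured in mouse kidney after ischemia/reperfusion injury (IRI), ischemic pre-conditioning (IPC) and Hemin treatment. They were taken by gene name from the non-control spots of Agilent arrays, as 10 of the 27827 gene names there. The genes were the ligands Tgfb1, Tgfb2, Tgfb3, Inhba, Inhbb, Bmp7 and Gdf15, the receptors Tgfbr1 and Tgfbr2, and the inhibitor Smad7. They were read by 15 of the 41174 probes.

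TGF-beta, activin and BMP ligands of this family are secreted dimers that bring together a type II and a type I receptor serine/threonine kinase on the cell surface. TGF-beta and activin then act mainly through Smad2 and Smad3, BMPs act mainly through Smad1, Smad5 and Smad9, and both groups share Smad4. In the kidney, TGF-beta is best known for its part in fibrosis after injury, Bmp7 is a product of tubules and podocytes that is needed for kidney development, and Gdf15 is a distant member of the family that many stressed cells release.

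Kidneys of male C57BL/6 mice aged 8 to 12 weeks were used, with 4 arrays in each of 5 groups. Control animals had, per the labels, no surgery and no Hemin. The IRI group had 45 min of ischemia and 6 h of reperfusion. The IRI+Hemin group had the same injury with 25 mg/kg of Hemin, which induces heme oxygenase 1, injected 24 h earlier, and the Hemin group received the drug alone. The IPC+IRI group had 15 min of ischemia 7 days before the same injury. Whole kidney RNA was measured at a single time point. The labels do not say whether each array holds a single animal, and p-values measure the spread between these arrays.

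Expression is given as log2 of the processed signal over the 75th percentile of the array, so that 0 is that percentile, and differences are on the same log2 scale. A change was called at an adjusted p below 0.05 (limma over all genes tested, Benjamini-Hochberg). Markers of the proximal tubule were well above background on all arrays for 6 of 6 genes. The 5 groups were hybridised on 5 slides, 1 for each, and slide and group cannot be told apart. Of the 5 comparisons of the study, only IRI vs Control lay within a single scan day, as did IPC+IRI vs Hemin. In most arrays between 0.310% and 3.08% of the genes measured everywhere lay more than 1 log2 unit from the median of the other arrays of the group. IRI+Hemin replicate 4 (5.47%), IPC+IRI replicate 1 (4.79%) and Control replicate 2 (3.77%) stood apart from the rest, and values without them are given where they change a call. The share of genes well above background ran from 57.4% to 67.4% over the arrays.

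After IRI, Gdf15, Inhbb, Inhba, Tgfbr2 and Tgfb1 were up-regulated and none of the 10 genes was down-regulated. Of the 17711 genes tested in IRI vs Control, 17.1% were called higher and 33.9% lower. The median log2 difference was 0.73 for the 10 genes and -0.17 for all genes. The direction over all genes turned with normexp background correction, where 56.4% of calls were higher and the median was 0.02. In whole kidney RNA, fewer cells of a type and less RNA per cell cannot be told apart. Without Control replicate 2, 6 of the 10 genes were called, with Tgfb1 lost and Tgfb3 and Smad7 gained.

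**Figure D1:**
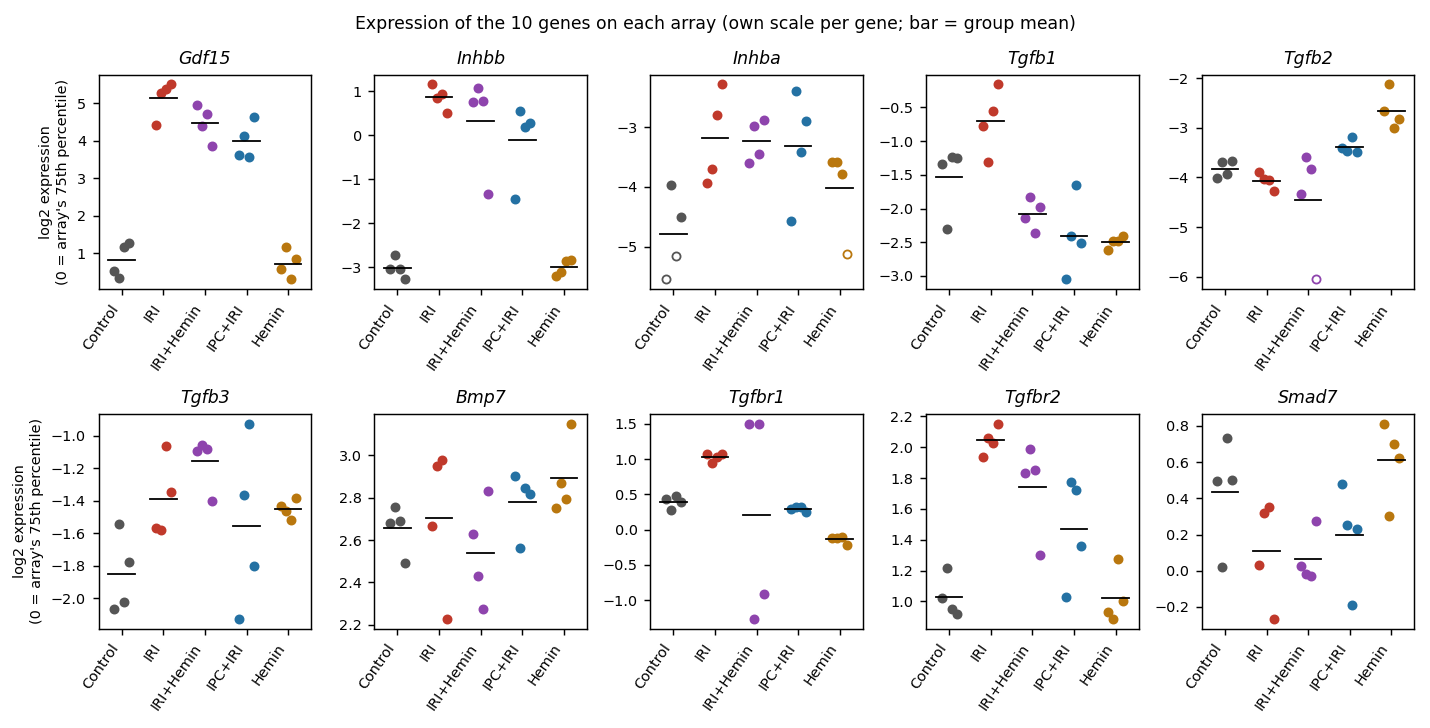
Log2 expression of the 10 genes on each of the 20 arrays by group; the y axis is scaled separately for each gene, filled points were well above background, open points were not, and bars are group means. Gdf15 and Inhbb separate the 3 groups with IRI from the Control and Hemin groups without overlap, Tgfb1 is lowest in the IRI+Hemin, IPC+IRI and Hemin groups, and Tgfbr1 splits into 2 high and 2 low arrays in the IRI+Hemin group.

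Gdf15 encodes growth differentiation factor 15, a circulating stress hormone. Its single probe lies on chromosome 8 at chr8:73153471-73153530 (mm9, minus strand) and was well above background on every array. Log2 expression in the Control group was 0.53, 1.17, 1.28 and 0.32. In the IRI group it was 4.42, 5.28, 5.38 and 5.51, so that every IRI array lay far above every Control array. The difference was 4.32 ± 0.31 (SE, n = 4 and 4), which is 19.9-fold (limma, adjusted p = 1.0e-08). In IPC+IRI the values were 3.57, 3.61, 4.11 and 4.63, still 8.90-fold above the Control group. IPC+IRI lay 1.16 below IRI on the log2 scale (adjusted p = 0.0054), although the highest IPC+IRI array (4.63) passed the lowest IRI array (4.42). In IRI+Hemin Gdf15 measured 3.85, 4.40, 4.72 and 4.95. The difference from IRI was -0.66, with a 95% interval from -1.31 to -0.02 and an adjusted p of 0.088, and without IRI replicate 1 it was -0.91 (adjusted p = 0.025). Hemin alone (0.30, 0.57, 0.83 and 1.17) spanned nearly the same range as the Control group.

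Inhbb encodes the activin beta B subunit, which forms activin B as a dimer and inhibin B with the alpha subunit. Log2 expression was -3.28, -3.03, -3.03 and -2.72 in the Control group and 0.51, 0.85, 0.95 and 1.16 in the IRI group. The groups were thus 3.88 ± 0.43 (SE) apart, or 14.7-fold (adjusted p = 1.6e-06). The size depended on the processing, with 2.20 under normexp and 2.38 with the mean of log2 over probes, both called. In the IRI+Hemin group 3 arrays measured 0.76, 0.77 and 1.08, within the range of IRI, and the fourth, replicate 4, measured -1.33. In the IPC+IRI group 3 arrays measured 0.20, 0.27 and 0.55 and replicate 1 measured -1.46. These 2 low arrays are those that stood apart over all genes. IPC+IRI was 2.91 above the Control group (adjusted p = 2.8e-05), and 1.41 under normexp and 1.77 with the mean of log2 over probes. Its difference from IRI was -0.97 (adjusted p = 0.077), with a 95% interval from -1.88 to -0.06. Without the low array, IPC+IRI replicate 1, it was -0.52 (adjusted p = 0.29). It was called without IPC+IRI replicate 2 (-1.19, adjusted p = 0.045), with normexp (-0.80, adjusted p = 0.037) and with the IRI+Hemin arrays left out of the fit (adjusted p = 0.0225). Hemin alone left Inhbb at -3.00 ± 0.18 (SD, n = 4), next to -3.01 ± 0.23 in the Control group.

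Inhba encodes the activin beta A subunit and was near background. In the Control group 2 of 4 arrays were well above background, with values of -5.55, -5.15, -4.50 and -3.96. In the IRI group all 4 were, at -3.94, -3.71, -2.79 and -2.28, just above the highest Control array. The difference was 1.61 ± 0.47 (SE, adjusted p = 0.0085), and 0.58 (adjusted p = 0.035) with normexp. In IPC+IRI (-4.56, -3.42, -2.90 and -2.39) the groups overlapped and the difference from Control was 1.47 (adjusted p = 0.013). That call was lost with normexp (0.15, adjusted p = 0.56), without Control replicate 1 (adjusted p = 0.0503) and without IPC+IRI replicate 2 (adjusted p = 0.053). IRI+Hemin values ran from -3.60 to -2.88, and Hemin values from -5.12 to -3.58. With normexp, IRI+Hemin was called lower than IRI (-0.52, adjusted p = 0.041). Of the direct partners of activins, the antagonist Fst (follistatin) was not called after IRI (-0.44, adjusted p = 0.26) but was higher in IRI+Hemin vs IRI by 1.46 (adjusted p = 0.0013). Acvr1b, the activin type I receptor, did not pass the test in IRI vs Control (-0.02) and was lower in IRI+Hemin vs IRI (-0.57) and in IPC+IRI vs IRI (-0.44).

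Gdf15, Inhbb and Tgfbr2 gave the 3 highest correlations between any 2 of the 10 genes. Over the 20 arrays, which share slides within a group, Pearson's r of log2 expression was 0.94 for Inhbb with Gdf15, 0.93 for Inhbb with Tgfbr2 and 0.85 for Tgfbr2 with Gdf15. Since these genes moved together, the 250 bases before their RefSeq start sites (GRCm38.p6, minus strand in each case) are shown, 5′ to 3′. Capitals mark matches on either strand to the AP-1 site TGANTCA, the cAMP response element TGACGTCA, the Smad element CAGACA, the GC box GGGCGG or the TATA box TATAAA. RefSeq promoters were found for 7 of the 10 genes, and Gdf15 has a second start site whose window is not shown.
Gdf15, chr8:70632457-70632706: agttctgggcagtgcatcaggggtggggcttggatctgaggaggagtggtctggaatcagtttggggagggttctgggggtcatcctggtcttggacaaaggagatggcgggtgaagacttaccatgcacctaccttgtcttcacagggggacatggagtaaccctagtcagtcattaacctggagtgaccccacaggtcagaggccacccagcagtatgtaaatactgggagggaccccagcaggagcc
Inhbb, chr1:119422249-119422498: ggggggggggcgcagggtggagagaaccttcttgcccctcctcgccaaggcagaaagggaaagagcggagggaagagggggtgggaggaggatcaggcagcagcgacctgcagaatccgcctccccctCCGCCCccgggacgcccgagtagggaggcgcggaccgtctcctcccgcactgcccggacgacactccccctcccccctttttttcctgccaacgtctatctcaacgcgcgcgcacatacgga
Tgfbr2, chr9:116175364-116175613: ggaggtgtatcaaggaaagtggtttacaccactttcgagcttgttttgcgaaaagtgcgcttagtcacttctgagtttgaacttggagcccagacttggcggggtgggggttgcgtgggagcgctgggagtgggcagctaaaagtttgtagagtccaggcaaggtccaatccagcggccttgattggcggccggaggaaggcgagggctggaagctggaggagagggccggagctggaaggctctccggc

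The single match was a GC box in the Inhbb window, 122 bases before the start, on the reverse strand. Of 32851 promoter windows of the same length, 32.7% held a GC box, 17.1% the Smad element, 12.4% the TATA box, 6.75% the AP-1 site and 1.55% the cAMP response element. GC content was 68.0% in the Inhbb window, 58.4% in that of Tgfbr2 and 56.4% in that of Gdf15. These letters are in or absent from these windows only, and nothing was measured of protein binding.

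Tgfb1 encodes the TGF-beta1 ligand, which is stored in a latent form. Its probe was spotted 10 times on each array, at chr7:26489877-26489936 (mm9, plus strand), and was well above background throughout. In the Control group 3 arrays measured -1.34, -1.25 and -1.23, and replicate 2 measured -2.30. In the IRI group the values were -1.30, -0.78, -0.55 and -0.16, so that the lowest IRI array lay among the Control arrays. The difference of 0.83 passed the test (adjusted p = 0.019). It did not without Control replicate 2 (0.57, adjusted p = 0.081) or without IRI replicate 4 (0.65, adjusted p = 0.073), nor with the deposited matrix (0.64, adjusted p = 0.095) or without scaling (0.95, adjusted p = 0.053).

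Tgfb1 was the only one of the 10 genes called in all 5 comparisons of the study. It was lower in the 4 other than IRI vs Control. Each of those 4 set groups of different scan days against each other, so that scan day and treatment cannot be told apart. In IPC+IRI vs Hemin, within a single scan day, the difference was 0.09 (limma, adjusted p = 0.83). SAM, an alternative test, called Tgfb1 neither in IPC+IRI vs IRI nor in IRI+Hemin vs IRI. IPC+IRI values were -3.05, -2.52, -2.41 and -1.65, all below the IRI group, with a difference of -1.71 ± 0.28 (SE, adjusted p = 0.00013). IRI+Hemin values were -2.36, -2.15, -1.97 and -1.83, also all below IRI, with a difference of -1.38 ± 0.28 (SE, adjusted p = 0.00077). Hemin alone gave the tightest group, from -2.61 to -2.41, which was 0.97 below the Control group (adjusted p = 0.013). IPC+IRI vs Control differed by -0.88 (adjusted p = 0.013), and by -0.67 (adjusted p = 0.051) without IPC+IRI replicate 1. Without scaling between arrays, both differences from the Control group missed the threshold (-0.40 for Hemin, adjusted p = 0.36, and -0.44 for IPC+IRI, adjusted p = 0.34).

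Tgfb2, which encodes the TGF-beta2 ligand, moved in the opposite direction with Hemin alone. Log2 expression was -4.01, -3.93, -3.68 and -3.66 in the Control group and -3.01, -2.82, -2.67 and -2.12 in the Hemin group. The difference was 1.17 ± 0.36 (SE, adjusted p = 0.017), and the groups did not overlap. Without Hemin replicate 2 it was 0.99 (adjusted p = 0.055), and with normexp background correction it was 0.20 (adjusted p = 0.48). IRI (-4.28 to -3.89) was not distinguished from Control (-0.24, adjusted p = 0.60). IPC+IRI (-3.50 to -3.18) lay above every Control and IRI array, but the tests gave adjusted p = 0.31 and 0.13. The spread used in these tests was shared with IRI+Hemin, where 3 arrays measured -4.33, -3.84 and -3.58 and replicate 4 measured -6.05, not well above background. With the IRI+Hemin arrays left out of the fit, both were called (adjusted p = 0.034 and 0.0041). The difference from IRI (0.67) was also called with the deposited matrix (0.81, adjusted p = 0.0028).

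Tgfb3, the third TGF-beta ligand, was called in none of the comparisons of the study. Mean log2 expression was -1.85 ± 0.24 (SD, n = 4) for Control, -1.39 ± 0.24 for IRI, -1.16 ± 0.16 for IRI+Hemin, -1.55 ± 0.52 for IPC+IRI and -1.45 ± 0.06 for Hemin. IRI vs Control gave 0.46 (adjusted p = 0.059), and 0.57 (adjusted p = 0.032) without Control replicate 2. IPC+IRI vs Control gave 0.30 (adjusted p = 0.21), and 0.49 (adjusted p = 0.031) without IPC+IRI replicate 1. All 4 Hemin arrays lay above the highest Control array, with a difference of 0.40 (adjusted p = 0.12). With quantile normalization Tgfb3 was called in IRI vs Control (0.63, adjusted p = 0.011) and in Hemin vs Control (0.52, adjusted p = 0.040).

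Bmp7 showed no called difference in the 7 comparisons as fitted over all arrays. IRI+Hemin vs Hemin (-0.35, adjusted p = 0.079) was, however, called under 4 other settings: quantile normalization, the 75th percentile over probes above background everywhere, the brightest probe and the deposited matrix (adjusted p from 0.035 to 0.046). Without scaling, Bmp7 was called in Hemin vs Control (0.80, adjusted p = 0.0014) and IPC+IRI vs Control (0.56, adjusted p = 0.013). The median of all genes without scaling was itself 0.62 and 0.35 in these comparisons. Its probes lie at chr2:172695282-172695341, with 10 spots, and chr2:172695203-172695262 (mm9, minus strand), and all arrays were well above background with both. Means were 2.66 ± 0.11 (SD, n = 4) for Control, 2.71 ± 0.35 for IRI, 2.54 ± 0.24 for IRI+Hemin, 2.78 ± 0.15 for IPC+IRI and 2.89 ± 0.18 for Hemin. The 95% interval of IRI vs Control, from -0.28 to 0.38, bounds the change on either side. Secreted proteins that act on BMPs did differ after IRI. Sostdc1, a kidney antagonist of Bmp7, fell by 1.72 (adjusted p = 0.00015), and Kcp, listed as Crim2 and known to enhance Bmp7 action, fell by 1.17 (adjusted p = 1.6e-05). Twsg1, a BMP binding protein, did not pass the test (0.07), nor did the receptors Bmpr1a (0.07) and Bmpr2 (-0.02), while the type I receptor Acvr1 rose by 0.54 (adjusted p = 0.0030).

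Tgfbr2 encodes the type II receptor that binds TGF-beta. Log2 expression was 0.92, 0.95, 1.02 and 1.22 in the Control group and 1.94, 2.03, 2.06 and 2.15 in the IRI group. The difference was 1.02 ± 0.16 (SE), or 2.03-fold (adjusted p = 6.1e-05). IPC+IRI measured 1.03, 1.36, 1.72 and 1.78, all below the IRI group, with a difference of -0.57 (adjusted p = 0.0086), which was -0.44 (adjusted p = 0.12) with the deposited matrix. Against the Control group IPC+IRI was higher by 0.44 (adjusted p = 0.028), a call lost in 5 of the 8 fits with an array left out and under several other settings, down to 0.06 (adjusted p = 0.79) with the mean of log2 over probes. These left out Control replicates 1, 3 and 4 (adjusted p = 0.052, 0.064 and 0.070) and IPC+IRI replicates 2 and 3 (adjusted p = 0.099 and 0.090). IRI+Hemin measured 1.30, 1.83, 1.85 and 1.99, and its difference from IRI was -0.30 (adjusted p = 0.14), or -0.44 (adjusted p = 0.045) with the mean of log2 over probes. Hemin alone (1.02 ± 0.18, SD, n = 4) lay at the Control mean of 1.03 ± 0.13. Of its 3 probes, the one at chr9:115997155-115997214 (mm9, minus strand) carried these differences (1.02 in IRI vs Control, adjusted p = 7.1e-05). The probe at chr9:116019196-116019255 gave 0.51 (adjusted p = 0.057), and the third was not well above background on any array.

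Tgfbr1 encodes the type I receptor that phosphorylates Smad2 and Smad3. The Control group measured 0.28, 0.39, 0.44 and 0.47, and the IRI group 0.95, 1.03, 1.08 and 1.08. IPC+IRI lay between 0.26 and 0.33, and Hemin between -0.21 and -0.10. These 4 groups were tight, and IRI lay above the others while Hemin lay below them without overlap. In the IRI+Hemin group, in contrast, replicates 1 and 3 measured 1.495 and 1.505 and replicates 2 and 4 measured -1.26 and -0.91. This split was seen on the probe at chr4:47427421-47427480 (mm9, plus strand), with 2.48 and 2.50 against -0.32 and 0.03. The probe at chr4:47419898-47423556 was well above background on 4 of the 20 arrays.

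With the common spread that includes those arrays, no Tgfbr1 difference was called, with adjusted p = 0.24 in IRI vs Control (0.64), 0.18 in IPC+IRI vs IRI (-0.73) and 0.36 in Hemin vs Control (-0.53). With the IRI+Hemin arrays left out, a fit added after seeing the data, the same differences had adjusted p = 1.2e-05, 2.4e-05 and 0.00031. A fit of the arrays of each comparison alone gave 0.00092, 0.00081 and 0.0033. IRI+Hemin vs IRI was -0.83 (adjusted p = 0.14), and it was called without IRI+Hemin replicate 1 (-1.26, adjusted p = 0.0185) or replicate 3 (-1.26, adjusted p = 0.0182).

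**Figure D2:**
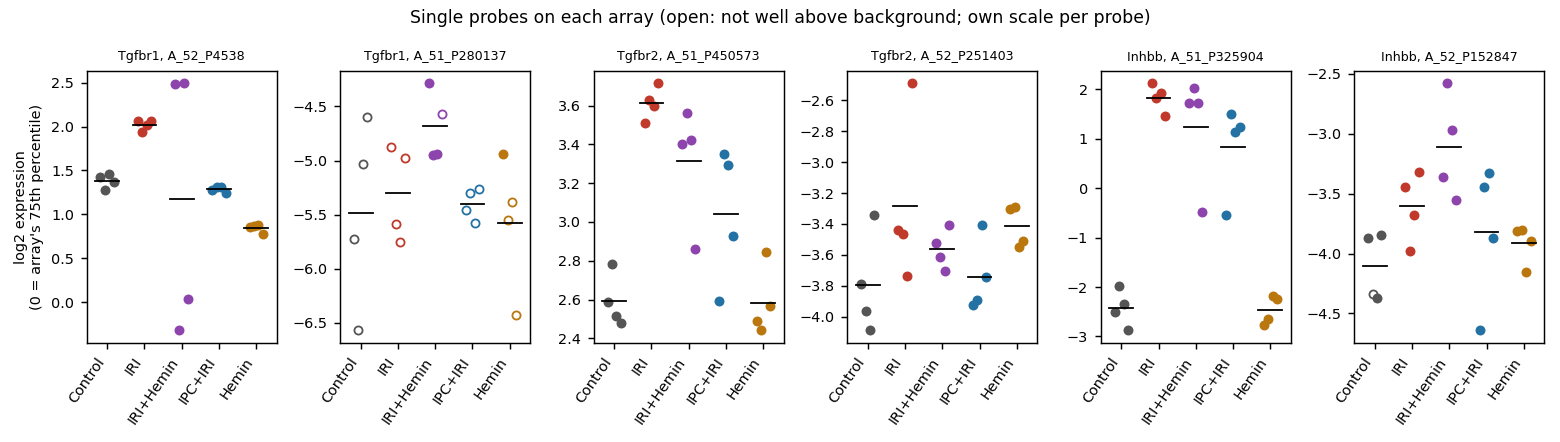
Log2 expression of single probes of Tgfbr1, Tgfbr2 and Inhbb on each array by group; the y axis is scaled separately for each probe, open points were not well above background, and bars are group means. The IRI+Hemin arrays split at 2.48 and 2.50 against -0.32 and 0.03 on 1 Tgfbr1 probe, and the rise of Inhbb with IRI is 4.26 on 1 probe and 0.50 on the other.

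Different probes of Inhbb gave different sizes. The probe at chr1:121312083-121312142 (mm9, minus strand) rose by 4.26 in IRI vs Control (adjusted p = 1.0e-06), while the difference on that at chr1:121314417-121314476 was 0.50 (adjusted p = 0.11). For Bmp7 both probes were within 0.06 of 0 in that comparison (0.04 and 0.05).

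Smad7 encodes an inhibitory Smad that TGF-beta itself induces and that blocks its type I receptor. Its mean log2 expression was 0.44 ± 0.30 (SD, n = 4) for Control, 0.11 ± 0.29 for IRI, 0.06 ± 0.14 for IRI+Hemin, 0.19 ± 0.28 for IPC+IRI and 0.61 ± 0.22 for Hemin. None of the comparisons of the study was called, with -0.33 in IRI vs Control (adjusted p = 0.13). Without Control replicate 2, which measured 0.02, this difference was -0.47 (adjusted p = 0.033), and with the deposited matrix it was -0.51 (adjusted p = 0.014). Injury after Hemin, compared with Hemin alone, gave -0.55 (adjusted p = 0.018), and the 4 IRI+Hemin arrays (-0.03 to 0.28) lay below the 4 Hemin arrays (0.30 to 0.81). That call was lost without Hemin replicate 1 (-0.48, adjusted p = 0.055).

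Preconditioning before injury was compared with injury alone and with control. In IPC+IRI vs Control, Gdf15, Inhbb, Inhba and Tgfbr2 were higher, Inhba not with normexp, and Tgfb1 was lower, beside 23.3% of 18342 genes called higher and 32.7% called lower. Against IRI, the IPC+IRI arrays were lower for Gdf15, Tgfb1 and Tgfbr2, and no gene of the 10 was higher, beside 26.3% higher and 17.9% lower of 17663 genes. The IRI and IPC+IRI groups were scanned on different days. The median difference was -0.37 over the 10 genes and 0.09 over all genes, and the latter was -0.17 with normexp and 0.41 without scaling. Without scaling between arrays, Tgfb1 alone was called in IPC+IRI vs IRI, since Gdf15 then gave -0.85 (adjusted p = 0.12) and Tgfbr2 gave -0.26 (adjusted p = 0.53). SAM called none of the 10 genes in this comparison.

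Hemin before injury was compared with injury alone, and Hemin with control. In IRI+Hemin vs IRI only Tgfb1 was called, and it was lower, though SAM did not call it. Of 17831 genes, 26.3% were called higher and 18.1% lower in this comparison. In Hemin vs Control, Tgfb2 was higher and Tgfb1 lower, beside 18.5% higher and 17.6% lower of 18572 genes. Both pairs of groups lay on different scan days. Intensities differed between the groups before scaling, the 75th percentile having a median of 199.7 for Control arrays and 198.8 for IRI arrays, against 283.2 (IRI+Hemin), 254.3 (IPC+IRI) and 273.3 (Hemin). Without scaling, the median of all genes in Hemin vs Control was 0.62 instead of 0.06, and 5 of the 10 genes were called, beside 9312 of 18572 genes.

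**Figure D3:**
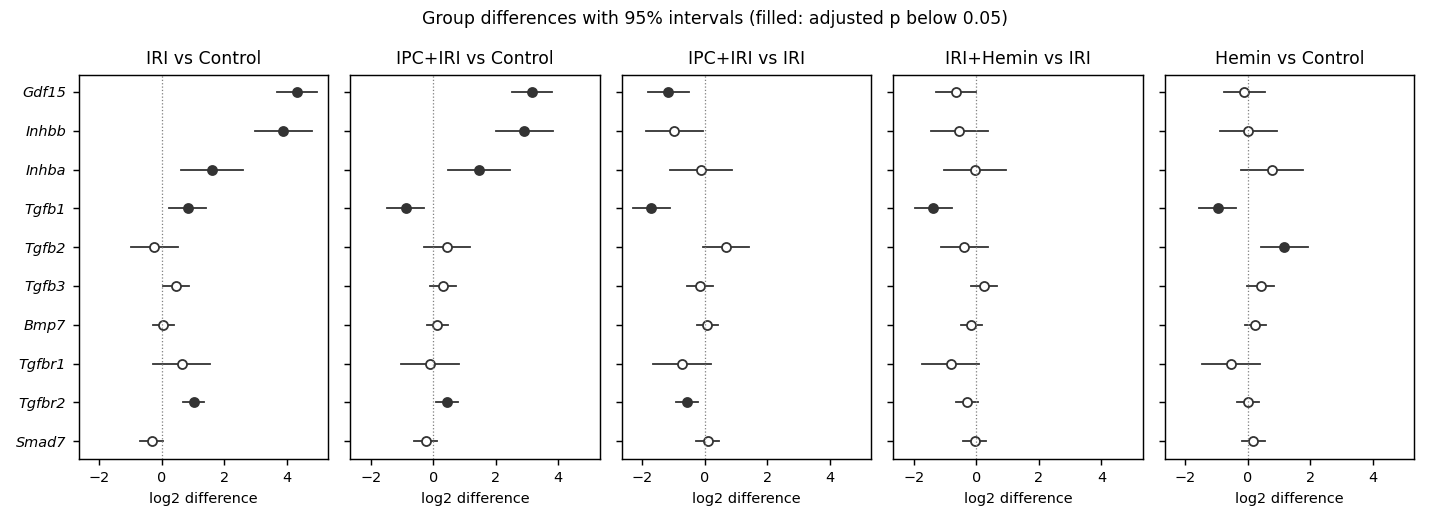
Log2 differences of the 10 genes in the 5 comparisons of the study, as points with 95% intervals on a common x axis; filled points had an adjusted p below 0.05 (limma). Gdf15 (4.32) and Inhbb (3.88) stand to the right of all others in IRI vs Control, and Tgfb1 is filled in all 5 comparisons, to the right of 0 only in IRI vs Control.

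Groups that share no array with IRI vs Control also set injured against uninjured kidney. In IPC+IRI vs Hemin, however, ischemia, preconditioning and Hemin differ at once and cannot be told apart. The comparison IPC+IRI vs Hemin lay within a single scan day, and in it Gdf15 was higher by 3.26 (adjusted p = 6.0e-07), Inhbb by 2.89 (adjusted p = 7.6e-05) and Tgfbr2 by 0.45 (adjusted p = 0.041), and none of the 10 was called lower. All 4 IPC+IRI arrays lay below all 4 Hemin arrays for Tgfb2 (-0.73, adjusted p = 0.12), which was called with the deposited matrix (-0.85, adjusted p = 0.0024), with the compared arrays alone (adjusted p = 0.016) and without the IRI+Hemin arrays (adjusted p = 0.0031), and was -0.26 with normexp. Smad7 (-0.41, adjusted p = 0.074) was called lower with the deposited matrix (-0.53, adjusted p = 0.016), without IPC+IRI replicate 1 (-0.51, adjusted p = 0.040) and without Hemin replicate 2 (-0.52, adjusted p = 0.042). For Tgfbr1 every IPC+IRI array lay above every Hemin array (0.44, adjusted p = 0.46). Tgfbr1 was called with the compared arrays alone (adjusted p = 0.0036) and without the IRI+Hemin arrays (adjusted p = 0.00067). The Tgfbr2 call was lost under most other settings. Its adjusted p was 0.65 with the mean of log2 over probes (0.11), 0.48 without scaling, 0.26 with the deposited matrix, 0.23 with normexp, 0.082 with the compared arrays alone, 0.072 with quantile normalization, 0.065 without the filter on dim genes and 0.052 with the other 75th percentile. It was not called by SAM or in 5 of 8 fits with an array left out, with adjusted p up to 0.14 without IPC+IRI replicate 2. The Inhbb difference was 1.66 with normexp and 1.69 with the mean of log2 over probes, and was called with both. Over all 18536 genes, 13.2% were higher and 22.8% lower. In IRI+Hemin vs Hemin, Gdf15 was higher by 3.77 (adjusted p = 1.1e-07), Inhbb by 3.32 (adjusted p = 1.5e-05) and Tgfbr2 by 0.72 (adjusted p = 0.0020), while Tgfb2 was lower by 1.80 (adjusted p = 0.00064) and Smad7 by 0.55. Several of these values depended on the processing. Inhbb gave 2.24 with normexp and 2.25 with the mean of log2 over probes, both called. With normexp background correction Tgfb2 gave -0.54 (adjusted p = 0.065). Tgfbr2 gave 0.24 (adjusted p = 0.27) with the mean of log2 over probes and 0.64 (adjusted p = 0.13) without scaling, and its second probe gave -0.15 (adjusted p = 0.60). Smad7 gave -0.63 (adjusted p = 0.071) without scaling. Over all 18628 genes, 16.5% were higher and 27.9% lower. Without IRI+Hemin replicate 4, 6 of the 10 genes were called there, Bmp7 being added (-0.45, adjusted p = 0.033). Inhba and Tgfb1, both higher in IRI vs Control, were called in neither of these comparisons. Inhba gave 0.70 (adjusted p = 0.26) in IPC+IRI vs Hemin and 0.79 (adjusted p = 0.19) in IRI+Hemin vs Hemin. Tgfb1 gave 0.09 (adjusted p = 0.83) and 0.42 (adjusted p = 0.24), in the same order. With the compared arrays alone, Tgfb1 was called in IRI+Hemin vs Hemin (adjusted p = 0.025).

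Whether the effect of IRI differed with and without Hemin was tested by their interaction. None of the 10 genes passed in limma, where only Tgfb2 (interaction -1.56, adjusted p = 0.067) had an unadjusted p under the threshold of 0.05. Over 19058 genes, the interaction was called higher for 5.83% and lower for 1.96%. For Tgfb2 the effect of IRI was -0.24 without Hemin and -1.80 with it. The call depended on the IRI+Hemin arrays, since Tgfb2 passed without replicate 2 (-1.85, adjusted p = 0.029), replicate 3 (-1.76, adjusted p = 0.043) or replicate 4 (-1.02, adjusted p = 0.027). It also depended on the processing, with -1.97 (adjusted p = 0.039) under quantile normalization. The Tgfb2 interaction was -0.71 (adjusted p = 0.37) with normexp and -0.84 (adjusted p = 0.083) with the deposited matrix. For Gdf15 the effect of IRI was 4.32 without and 3.77 with Hemin, and the 95% interval of the interaction ran from -1.47 to 0.36. For Inhbb the values were 3.88 and 3.32, with an interval from -1.85 to 0.74.

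The other genes of the pathway were taken from a list of 83 ligands, receptors, Smads, inhibitors and targets, of which 71 could be tested in IRI vs Control. Of these, 23 were called higher and 15 lower, beside 17.1% and 33.9% of all genes. Far fewer of them were called with normexp or with SAM, as counted in the closing section. As processed here, the median difference of the 71 genes was 0.03, beside -0.17 for all genes. With normexp the median of all genes was 0.02, and that of the 71 was not determined.

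Of 8 Smads and Smad anchors tested, 4 were higher and 1 was lower. Smad1, a carrier of BMP signals, rose by 1.26 (adjusted p = 0.00022), and Smad3, a carrier of TGF-beta and activin signals, rose by 1.23 (adjusted p = 5.5e-05). Smad4 (0.44) and Smad2 (0.43) rose less, and the anchor Zfyve16 fell by 0.35. Of 12 target genes, 6 were higher and 2 lower. Junb, an AP-1 subunit, rose by 2.50, Thbs1, which can release TGF-beta from its latent form, by 2.19, and Ctgf, a matricellular protein, by 1.78. The collagen gene Col1a1 fell by 1.27 and Id4, which encodes an inhibitor of differentiation, by 1.01. The other Id genes, known BMP targets, gave 0.61 for Id1 (adjusted p = 0.048), -0.21 for Id2 (adjusted p = 0.51) and 0.52 for Id3 (adjusted p = 0.067).

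**Figure D4:**
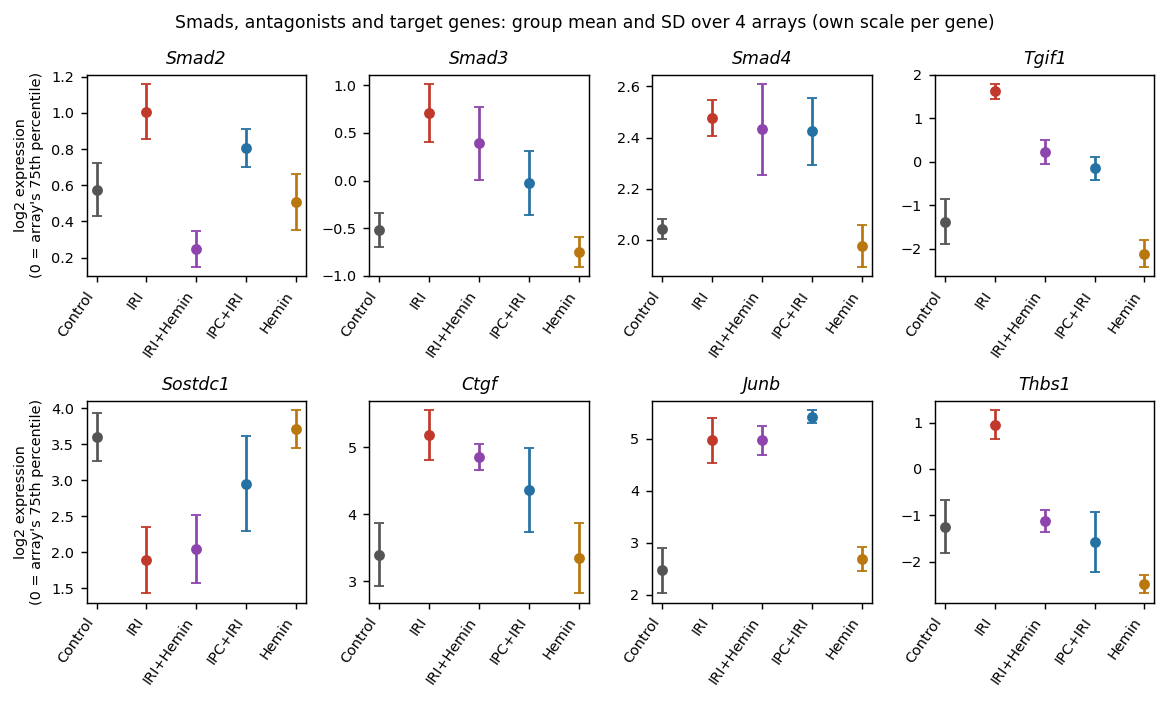
Log2 expression of Smads, antagonists and target genes as group means with SD over 4 arrays; the y axis is scaled separately for each gene. Smad3 is higher in the 3 groups with IRI than in Control, Tgif1 is lower in IRI+Hemin and IPC+IRI than in IRI, and Thbs1 is higher in IRI (0.95) than in the other 4 groups.

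Inhibitors, antagonists and latency proteins included 6 genes that rose and 3 that fell, of 24 tested. Tgif1, a repressor that binds Smads, rose by 3.00 (adjusted p = 1.7e-08). Grem1, a BMP antagonist, was well above background on no Control array and on all IRI arrays. Set against the lowest signal counted as well above background on each Control array, it was at least 1.84-fold higher (adjusted p = 3.8e-05, measured means -3.82 and -6.42). Chrd, the BMP antagonist chordin, fell by 0.75. Skil, a repressor of Smads, did not pass the test (0.42, adjusted p = 0.067).

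Other ligands included 4 genes that rose and 8 that fell, of 16 tested. Bmp6 rose by 0.68 and Bmp4, whose Control and IRI arrays overlapped, by 0.62. Bmp2 and Gdf9 were at least 1.43-fold and 1.59-fold higher than a Control group with no array well above background. Lefty1, an antagonist of Nodal, fell by 1.82, Gdf1 by 1.63 and Gdf10 by 1.30. In the IRI group, however, Lefty1 was well above background on 1 of 4 arrays and Gdf1 on 2 of 4, so that these sizes rest partly on signals near background. Bmp2 and Gdf9 were well above it on 3 of 4 IRI arrays. Among 11 receptors, Acvr1, Bmpr1b (0.51) and Acvr2a (0.49) rose and Acvrl1, an endothelial receptor named after its value was seen, fell by 0.91.

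After preconditioning and injury, 14 of 70 other genes were higher than in Control and 21 lower, beside 23.3% and 32.7% of all genes. The split over all genes turned without scaling, where 75.2% of calls were higher and the median was 0.35 instead of -0.09. Junb (2.96), Tgif1 (1.23), Smad1 (0.95) and Smad4 (0.38) again rose, as did Smurf1 (0.27), which encodes a ubiquitin ligase for Smads, and Bmpr2 (0.24). Chrd (-1.37), Kcp (-1.04), the latency protein gene Ltbp4 (-0.96), the anchor Zfyve9 (-0.69) and Id4 (-1.03) fell. So did the coreceptors Tgfbr3 (-1.68) and Eng (-0.72), with Acvr1b (-0.46) and the ligand Nodal (-1.55). Gdf9 was at least 2.01-fold higher, and Gdf7 and Lefty2 at least 2.46-fold and 1.44-fold lower, since 1 of the groups had no array well above background.

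Both pre-treatments were set against injury alone for the same list. In IPC+IRI vs IRI, 10 were higher and 18 lower of 69 tested, and in IRI+Hemin vs IRI 11 were higher and 15 lower of 69. Of all genes, 26.3% were higher in either comparison, and 17.9% and 18.1% were lower. Tgif1 fell by 1.77 and 1.39, Thbs1 by 2.52 and 2.07, and the type I receptor Acvr1 by 0.78 and 0.56, in the same order. Both comparisons share the IRI arrays. Smad3 fell in IPC+IRI vs IRI (-0.74, adjusted p = 0.0057) and did not pass in IRI+Hemin vs IRI (-0.32, adjusted p = 0.20), and Smad2 fell in IRI+Hemin vs IRI (-0.76, adjusted p = 4.1e-05) and did not pass in IPC+IRI vs IRI (-0.20, adjusted p = 0.14). In Hemin vs Control 7 were higher and 13 lower of 71, beside 18.5% and 17.6% of all genes, and Tgfbr3 fell most (-2.05). Tgfbr3 was well above background on 2 of 4 Hemin arrays and on 3 of 4 IPC+IRI arrays.

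Markers of blood cells moved with some of these groups. The summed level of 4 neutrophil markers, on a linear scale where 1 is the 75th percentile of the array, was 0.223 to 0.576 for Control, 2.44 to 8.03 for IRI, 2.14 to 9.44 for IRI+Hemin, 6.29 to 19.2 for IPC+IRI and 0.452 to 1.57 for Hemin. Of the 4 markers, 1 was well above background on all Control arrays, and Csf3r was on no Control or Hemin array. Levels of 8 leukocyte markers ran from 2.64 to 4.81 for Control, 3.15 to 4.26 for IRI, 3.60 to 7.55 for IRI+Hemin, 5.05 to 20.4 for IPC+IRI and 3.30 to 4.38 for Hemin. For 4 platelet markers the ranges were 0.317 to 0.777, 0.837 to 1.15, 0.694 to 1.01, 0.726 to 1.33 and 0.618 to 0.735, in the same order of groups. The part of these cells in the levels of Gdf15, Inhbb and Tgfb1 was not tested. Levels of the 3 podocyte markers were 2.12 to 3.76, 1.62 to 2.38, 1.47 to 2.25, 1.30 to 1.82 and 2.11 to 2.71, in that order, so that IPC+IRI lay wholly below Control. Those of 4 endothelial markers were 2.68 to 3.76, 3.43 to 4.46, 2.56 to 3.81, 1.52 to 3.32 and 2.17 to 2.95, and IPC+IRI lay wholly below IRI. Their part in the lower values of IPC+IRI, such as Eng, Tgfbr3 and Tgfbr2, was not tested. Levels of 3 fat markers varied widely within groups, from 0.171 to 14.4 for Control and 0.477 to 17.0 for IRI. They ran from 0.863 to 9.44 for IRI+Hemin, 0.439 to 4.09 for IPC+IRI and 0.156 to 3.44 for Hemin. The part of fat tissue in the levels of the genes reported here was not tested.

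Profiles most like each gene were sought among 16263 genes well above background on at least 16 of the 20 arrays, as a description. Gdf15 was closest to Plaur (r = 0.98), Pvr (r = 0.98) and Atf6 (r = 0.98), and Inhbb to 2010003K11Rik (r = 0.99), Nek6 (r = 0.98) and Gch1 (r = 0.98). Tgfbr2 was closest to Plat (r = 0.96), Gch1 (r = 0.95) and Thbd (r = 0.94), so that Gch1 stood among the closest genes of both. Tgfb1 was closest to Myadm (r = 0.96), Ppp2r1a (r = 0.94) and Plekho2 (r = 0.94). Tgfb2 was closest to Tctn2 (r = 0.95), Tgfbr1 to Chmp2b (r = 0.94) and Smad7 to Klhl22 (r = 0.89). For Tgfb3, Inhba and Bmp7 the highest r was 0.82 (Carhsp1), 0.83 (Taf1a) and 0.88 (Ndufs3).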

How the data were processed

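RNA of 20 mouse kidney samples was hybridised with Cy3 label to Agilent arrays of the whole mouse genome. The authors deposited scanner output, in which the processed signal is a background-subtracted spot intensity (Feature Extraction 9.5.3.1 per the file headers), and a log2 matrix; for probes with a single spot, 100% of the deposited log2 values lay within 0.001 of the log2 of that intensity. Probe positions are those of the files (mm9). Flagged spots were removed, spots of a probe were averaged, arrays were divided by their 75th percentile, probes of a gene name were averaged, and log2 was taken. A gene was tested with at most 1 missing value and at least 3 of 4 arrays of either group well above background; a gene counted as above where any of its probes was.

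R 4.3.3 with limma 3.58.1 fitted the group means of all 20 arrays (tables read with the data.table package, 15 residual degrees of freedom), with Benjamini-Hochberg adjustment within each of 7 comparisons and the interaction. IRI+Hemin vs Hemin and IPC+IRI vs Hemin are not among the study's own comparisons. Named genes are the 10 members, up to 3 genes per role and direction called in IRI vs Control or IPC+IRI vs Control with groups that do not overlap, and their direct partners. Bmp4 and Acvrl1 are named outside this rule. Members and lists were chosen with earlier results of these data known. The fit was tested on simulated data. Alternatives were normexp (offset 50), no scaling, quantile normalization, the 75th percentile over probes above background everywhere, the brightest probe, the mean of log2 values, the deposited matrix, 2 filters on dim genes, fold cutoffs (3-fold up and 2-fold down in IRI vs Control, 4-fold up and 2-fold down in IPC+IRI vs Control, and 3-fold either way elsewhere, a value chosen here for IRI+Hemin vs IRI and the comparisons with Hemin as reference), SAM, the compared arrays alone, a replicate block, and each array left out in turn; a fit without the IRI+Hemin arrays was chosen after seeing the data. The number of arrays limits the precision. Replicate numbers did not pair the samples. Some genes of the pathway list are counted in its totals but not reported here by name.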

Additional observations from a re-analysis of the deposited data

Results flagged for a closer look

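In 5 of the 50 sets of 4 arrays (10 genes in 5 groups), 1 array lay far from the other 3 of its group by Dixon's test at the 95% level. Chance alone flags about 1 in 20 such sets. The causes were not tested.

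Tgfb1 in Control replicate 2 was -2.30, while the other 3 Control arrays lay between -1.34 and -1.23. Tgfb3 in IRI+Hemin replicate 4 was -1.40, against -1.09 to -1.05. Tgfbr1 in Hemin replicate 4 was -0.21, against -0.12 to -0.10. Inhba in Hemin replicate 4 was -5.12, against -3.78 to -3.58, and that array was not well above background for this gene. Inhbb in IRI+Hemin replicate 4 was -1.33, against 0.76 to 1.08. Control replicate 2 and IRI+Hemin replicate 4 were among the 3 arrays that stood apart from their groups over all genes.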

How the results depend on the processing

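No value changed direction past its threshold under any alternative run. Counts of the 10 genes called moved by over 1.5 times as follows. In IRI vs Control (5 as reported), fold cutoffs left 3 and SAM 3. Of the 5 in IPC+IRI vs Control, normexp left 3, fold cutoffs 2 and SAM 2. For IPC+IRI vs IRI (3), no scaling gave 1, fold cutoffs 1, SAM 0, the compared arrays alone 5 and the fit without the IRI+Hemin arrays 6. In IRI+Hemin vs IRI (1), normexp gave 2, the mean of log2 over probes 2, fold cutoffs 0 and SAM 0. In Hemin vs Control (2), normexp gave 1, no scaling 5, fold cutoffs 0, SAM 1 and the compared arrays alone 4. In IRI+Hemin vs Hemin (5), no scaling gave 3, fold cutoffs 3 and SAM 2. With IPC+IRI vs Hemin (3), the fit without the IRI+Hemin arrays gave 5. For the interaction (0), quantile normalization gave 1. With each array left out in turn, the counts ran from 4 to 6, 3 to 5, 3 to 4, 1 to 2, 1 to 2, 4 to 6, 2 to 4 and 0 to 1, in that order. The lowest counts came without IRI replicate 4 (IRI vs Control), Control replicate 1 or IPC+IRI replicate 2 (IPC+IRI vs Control) and Hemin replicate 2 (Hemin vs Control). The cause of these shifts was not tested, except that fold cutoffs add a criterion to the same test. The cutoff of 3-fold either way used in IRI+Hemin vs IRI drops Tgfb1, which was 2.60-fold lower and would pass a cutoff of 2-fold.

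Of the other pathway genes, 38 were called in IRI vs Control, and 16 with normexp, 19 with fold cutoffs and 18 with SAM. For IPC+IRI vs Control the count of 35 became 20, 15 and 6 in the same order. For IPC+IRI vs IRI the count of 28 became 18 with normexp, 18 without scaling, 2 with fold cutoffs and 4 with SAM. For IRI+Hemin vs IRI the count of 26 became 17 with the deposited matrix, 1 with fold cutoffs and 3 with SAM, and for Hemin vs Control the count of 20 became 10, 1 and 3. For IRI+Hemin vs Hemin the count of 31 became 17 with normexp, 18 without scaling, 7 with fold cutoffs and 14 with SAM. For IPC+IRI vs Hemin the count of 31 became 12, 16, 5 and 6 in the same order, and 20 to 29 with an array left out (20 without IPC+IRI replicate 2).

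A replicate block gave 5, 5, 3, 1, 2, 5, 3 and 0 of the 10 genes in the order above. Same-numbered arrays did not deviate together (median correlation -0.03, from -0.38 to 0.21), and 2 of 20 arrays correlated best with their own number. Slide or scan day as a random block was not run, since it could not be fitted. Over all genes, the share of calls that were higher in Hemin vs Control was 51.3%, and 94.7% without scaling; in IRI vs Control it was 33.5%, from 19.6% with the deposited matrix to 56.4% with normexp. The share in IPC+IRI vs Control was 41.5% and 75.2% without scaling, in IPC+IRI vs IRI 59.5% and 90.7%, and in IRI+Hemin vs IRI 59.2% and 91.4%. Inhba was not well above background on 2 of 4 Control arrays, and its value in IPC+IRI vs Control was 0.15 (limma, adjusted p = 0.56) with normexp.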
